A study of Mus musculus with 9 samples.

Results

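Collagen and extracellular matrix genes were followed across Cyp2g1-null, B6 and 129/Sv arrays of the lateral nasal gland. This is a secretory gland in the side wall of the mouse nasal cavity. Members were the probe sets with 1 gene symbol that named a numbered collagen chain or laminin chain, plus a fixed set of matrix proteins: Mgp, Sparc, Fn1, Dcn, Lum, Bgn, Eln, Postn, Nid1, Nid2, Thbs1, Fmod, Prelp, Comp, Matn1 and Acan. The selection rule used names only, no measured value, but it was chosen with earlier results of these data known. It gave 62 genes with 103 probe sets, of 12393 genes with 1 symbol on the array. Fbn1, also sought by name, had no probe set with that symbol alone.

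RNA was measured on 9 1-colour Affymetrix arrays, 3 of them from Cyp2g1-null, 4 from B6 and 2 from 129/Sv mice, both strains being wild type. All mice were males aged 2 to 3 months, and each array was hybridised with RNA pooled from the glands of 10 mice. The null mice lack Cyp2g1, a cytochrome P450 known from the olfactory mucosa, on a background mixed from both strains, so both strains served as controls. An effect of the null allele and an effect of background alleles cannot be told apart against either strain alone. Each pool counted as 1 replicate, so the p-values measure only the spread between pools.

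Collagens are built from 3 chains wound into a helix. Fibrillar collagens assemble into the cables that give connective tissue its strength, while collagen IV, laminins and nidogens form the basement membrane under epithelia and around vessels. Small leucine-rich proteoglycans such as decorin coat collagen fibrils. In a gland most of this matrix is made by fibroblasts of the stroma between the secretory units, and epithelial and endothelial cells contribute to the basement membrane.

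The arrays were alike in scale: the mean signal after trimming 2% at each end lay between 1500.56 and 1500.59, and log2 signals of any pair of arrays correlated with r of 0.925 to 0.942. Cyp2g1 itself had signals of 55.7, 140.6 and 201.1 on the null arrays, against 5916.8, 748.2, 2006.9 and 2799.4 on the B6 arrays and 207.5 and 981.2 on the 129/Sv arrays, so null array 3 and 129/Sv array 1 nearly met. B6 array 1 also had the highest signal of Omp, the olfactory marker protein, at 3323.4.

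Of the 62 genes, 36 entered the tests because a probe set exceeded its array's median signal on at least 2 arrays. Among them were 6 of 9 fibrillar collagen genes, 11 of 20 basement membrane genes, 7 of 19 other collagens, 5 of 6 proteoglycans and 7 of 8 glycoproteins and elastic fibre genes. Of the members known from cartilage, Col2a1, Col9a1, Col9a2, Col9a3, Col10a1, Col11a2, Acan and Matn1 stayed below the filter, while Comp and Col11a1 passed it. The 26 untested genes had signals of 5.4 to 581.7, with array medians of 518.55 to 550.05. Of the 36 tested genes, 23 exceeded the median on all 9 arrays and 13 on fewer. Those 13 included 7 that exceeded it on no 129/Sv array (Col11a1, Col12a1, Col15a1, Col25a1, Comp, Lama5 and Nid2) and 3 that exceeded it on no null array (Col16a1, Comp and Nid2), so their entry depended on the other groups.

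B6 glands had higher signals than 129/Sv glands for Col3a1 (1.68-fold), Col6a3 (1.79-fold), Nid1 (1.71-fold) and Mgp (1.49-fold), and for no tested matrix gene was a lower B6 signal called. Null glands had lower signals than B6 glands for Mgp (1.67-fold) and Col3a1 (1.33-fold), and no matrix gene was called between null and 129/Sv glands. These are 4 of 36 tested matrix genes for B6 against 129/Sv, 2 of 36 for null against B6 and 0 of 36 for null against 129/Sv, beside 5.44%, 2.84% and 2.2% of all tested genes, so B6 against 129/Sv had the most calls over the whole array too. In limma an unadjusted p under 0.05 was reached by 14 of 36 matrix genes for B6 against 129/Sv, beside 18% of all tested genes. For null against B6 it was 11 of 36, beside 15%, and for null against 129/Sv 5 of 36, beside 12.1%. In a gland pool, fewer cells of a type and less RNA per cell cannot be told apart.

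**Figure D1:**
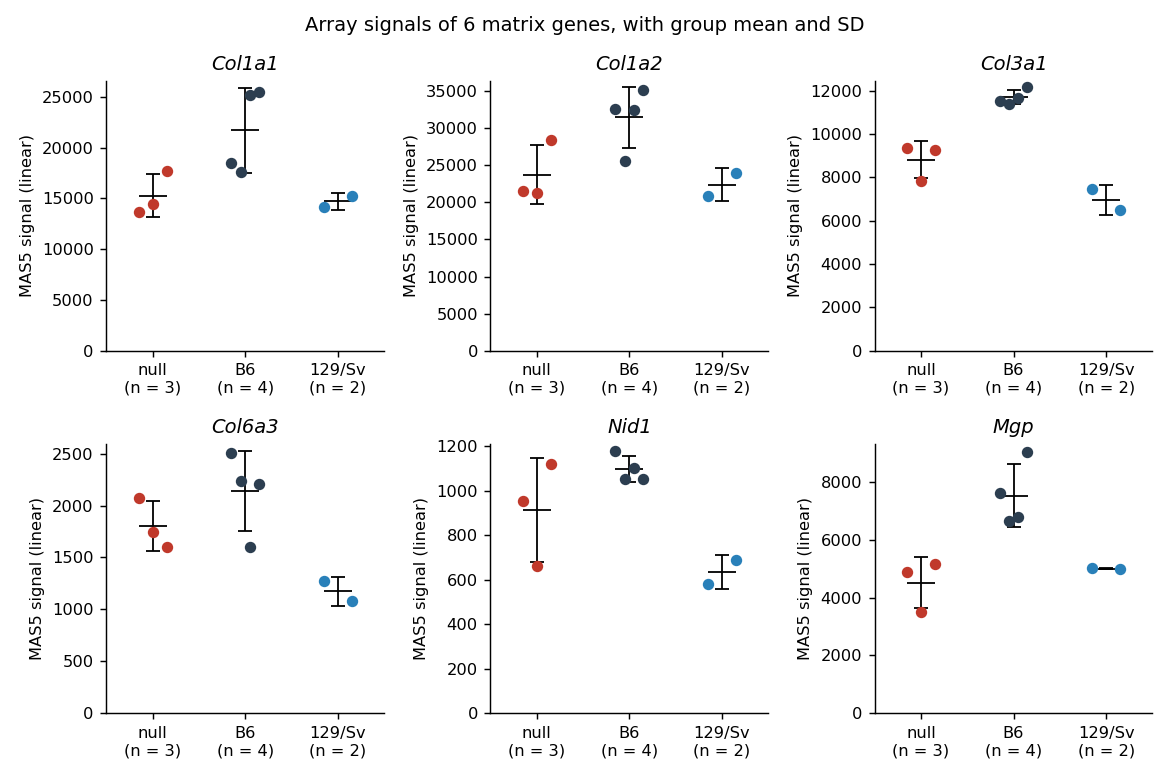
Signals (linear MAS5 units) of 6 matrix genes on each array, with null arrays on the left, B6 arrays in the middle and 129/Sv arrays on the right; points are arrays, bars the group mean and SD. For Col3a1, the B6 arrays at 11407.8 to 12152.4 lie above the null arrays at 7853.7 to 9336.1 and the 129/Sv arrays at 6484.1 and 7464.3.

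Col3a1 encodes the chain of type III collagen, a fibrillar collagen of elastic tissues and vessel walls. Its promoter window, 250 bases before to 50 bases after the gene's start, is shown first below. It is followed by the windows of Col6a3 and Nid1, the other genes called higher in B6 than 129/Sv that RefSeq's table covered, and of Col1a2, the member with the highest r (0.942) with the mean of the fibrillar collagens, of which it is itself a part. Sequences are RefSeq's on GRCm38.p6, written 5′ to 3′ on the gene's strand, with capitals for the TATA box letters TATAAA, the CCAAT box letters CCAAT and the GC box letters GGGCGG, searched on both strands (a CCAAT on the reverse strand reads ATTGG here). The windows are chr1:45311288-45311587 (plus strand) for Col3a1, chr1:90843922-90844221 (minus strand) for Col6a3, chr13:13437352-13437651 (plus strand) for Nid1 and chr6:4505368-4505667 (plus strand) for Col1a2.
Col3a1: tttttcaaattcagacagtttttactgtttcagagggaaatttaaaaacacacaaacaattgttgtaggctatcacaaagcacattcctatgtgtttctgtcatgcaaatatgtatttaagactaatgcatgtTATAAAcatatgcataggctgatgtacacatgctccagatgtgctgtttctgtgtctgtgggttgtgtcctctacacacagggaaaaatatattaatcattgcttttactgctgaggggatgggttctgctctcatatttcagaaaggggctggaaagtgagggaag
Col6a3: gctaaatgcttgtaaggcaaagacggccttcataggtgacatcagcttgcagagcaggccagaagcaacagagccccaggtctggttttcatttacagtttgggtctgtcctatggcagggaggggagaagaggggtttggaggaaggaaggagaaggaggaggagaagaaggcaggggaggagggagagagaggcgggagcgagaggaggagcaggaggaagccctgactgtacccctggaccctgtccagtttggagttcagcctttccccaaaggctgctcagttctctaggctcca
Nid1: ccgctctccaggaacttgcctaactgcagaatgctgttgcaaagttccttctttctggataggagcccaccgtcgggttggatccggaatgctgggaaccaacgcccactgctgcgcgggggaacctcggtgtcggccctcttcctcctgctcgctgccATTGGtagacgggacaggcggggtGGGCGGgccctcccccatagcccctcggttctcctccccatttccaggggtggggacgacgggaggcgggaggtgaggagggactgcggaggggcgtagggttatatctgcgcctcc
Col1a2: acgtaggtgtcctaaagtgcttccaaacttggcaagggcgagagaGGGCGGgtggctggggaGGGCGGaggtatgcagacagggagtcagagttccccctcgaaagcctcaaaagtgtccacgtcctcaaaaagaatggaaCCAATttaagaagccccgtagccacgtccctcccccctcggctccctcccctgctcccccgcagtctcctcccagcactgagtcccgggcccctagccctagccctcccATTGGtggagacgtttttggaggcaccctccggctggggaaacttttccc
TATAAA stood in the Col3a1 window at base 134, and CCAAT in either orientation in the Nid1 window at base 160 and the Col1a2 window at bases 142 and 251. GGGCGG stood at base 184 for Nid1 and at bases 46 and 63 for Col1a2, and the Col6a3 window held none of these letters. CCAAT was found in 18 of the 45 windows of 40 member genes and in 37.4% of all 32851 windows of this length. GGGCGG was found in 24 of 45 and 35.7%, and TATAAA in 6 of 45 and 13.6%. These matches describe the letters only, and no binding was measured.

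Fibrillar collagens had the same order of group means in each of the 6 tested genes for B6 above null and B6 above 129/Sv. Col3a1 had signals of 9336.1, 7853.7 and 9269.1 on null arrays, against 11546.3, 11407.8, 11652.5 and 12152.4 on B6 arrays and 7464.3 and 6484.1 on 129/Sv arrays. All null arrays lay below all B6 arrays and above both 129/Sv arrays. The means were 8820 ± 837 in null glands (SD, n = 3), 11690 ± 324 in B6 (SD, n = 4) and 6974 ± 693 in 129/Sv (SD, n = 2). In limma, with p-values adjusted by Benjamini-Hochberg over 7487 genes, the log2 difference of B6 from 129/Sv was 0.75 (SE 0.10, adjusted p = 0.000531), and that of null from B6 was -0.41 (SE 0.09, adjusted p = 0.0294). Null and 129/Sv differed by 0.34 (SE 0.11, limma adjusted p = 0.169), which did not pass. The call against 129/Sv held in every setting tried. That of null against B6 did not: its limma adjusted p was 0.0700 without B6 array 3, 0.0747 without B6 array 4, 0.0586 without null array 1, 0.157 without null array 2 and 0.0690 without null array 3.

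Col1a1 and Col1a2 encode the chains of type I collagen, the main protein of bone, tendon and dermis. Col1a1 had signals of 13678.8, 14490.2 and 17713.3 on null arrays, against 18544.7, 17626.1, 25243.2 and 25468.7 on B6 arrays and 14141.9 and 15277.7 on 129/Sv arrays. Null array 3 overlapped with B6 array 2, while all B6 arrays lay above both 129/Sv arrays. Neither the log2 difference of null from B6 (-0.49, SE 0.14, limma adjusted p = 0.0741) nor that of B6 from 129/Sv (0.54, SE 0.15, limma adjusted p = 0.0599) passed. Without B6 array 2 the adjusted p was 0.0381 for null against B6 and 0.0247 for B6 against 129/Sv, and without B6 array 1 they were 0.0308 and 0.0265. Col1a2 had 21539.6, 21327.5 and 28353.4 on null arrays, against 32647.4, 25607.1, 32438.7 and 35200.5 on B6 arrays and 20801.5 and 23964.3 on 129/Sv arrays. The pattern of overlap was that of Col1a1, with null array 3 above B6 array 2, and the differences were -0.41 (limma adjusted p = 0.101) and 0.49 (limma adjusted p = 0.0628). Without B6 array 2 the Col1a2 values passed as well, at 0.0381 for null against B6 and 0.0183 for B6 against 129/Sv. For B6 against 129/Sv, Col1a2 also passed at 0.0421 without null array 3.

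Type V and XI collagens are minor fibrillar chains that regulate fibril diameter. Col5a2, named after its values were seen, had 2280.3, 2255.3 and 2106.9 on null arrays, against 2842.4, 2439.3, 3020 and 3465.2 on B6 arrays and 1819.2 and 2244 on 129/Sv arrays. All B6 arrays lay above the arrays of both other groups, but neither difference passed (null against B6 -0.40, limma adjusted p = 0.132; B6 against 129/Sv 0.53, limma adjusted p = 0.0538). Its second, dimmer probe set had differences of 0.53 and -0.76, opposite in sign and not called. Without B6 array 2 Col5a2 passed for B6 against 129/Sv (0.0222), and without both B6 arrays 1 and 2 for null against B6 (0.0329). Col5a1 and Col11a1 had differences of -0.22 and -0.21 for null against B6 and 0.34 and 0.42 for B6 against 129/Sv, none called. The 6 genes had a median log2 difference of -0.40 for null against B6 (0 of 6 positive), 0.13 for null against 129/Sv (6 of 6 positive) and 0.51 for B6 against 129/Sv (6 of 6 positive). The medians over all tested genes were 0.02, 0.01 and -0.01. The comparisons of B6 with null and with 129/Sv share the 4 B6 arrays, and the filter admitted Col11a1 through arrays other than 129/Sv.

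The fibrillar collagens were also compared with each other across arrays. Over the 9 arrays the 15 pairs had Pearson's r of 0.53 to 0.92, with a median of 0.70. Once each group's mean was removed, r ran from -0.43 to 0.79, with a median of 0.21, well below that over all arrays, which include the group differences given above. Col1a1 and Col1a2 had the highest r in both, 0.92 and 0.79. These values describe 9 arrays that share groups and scaling. By the same measure, the 5 genes outside the matrix set most like the mean of the centred fibrillar collagens were Slc37a2 (r = 0.974), Gde1 (0.966), Slc30a7 (0.951), Slc25a10 (0.947) and Zfp386 (0.946).

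**Figure D2:**
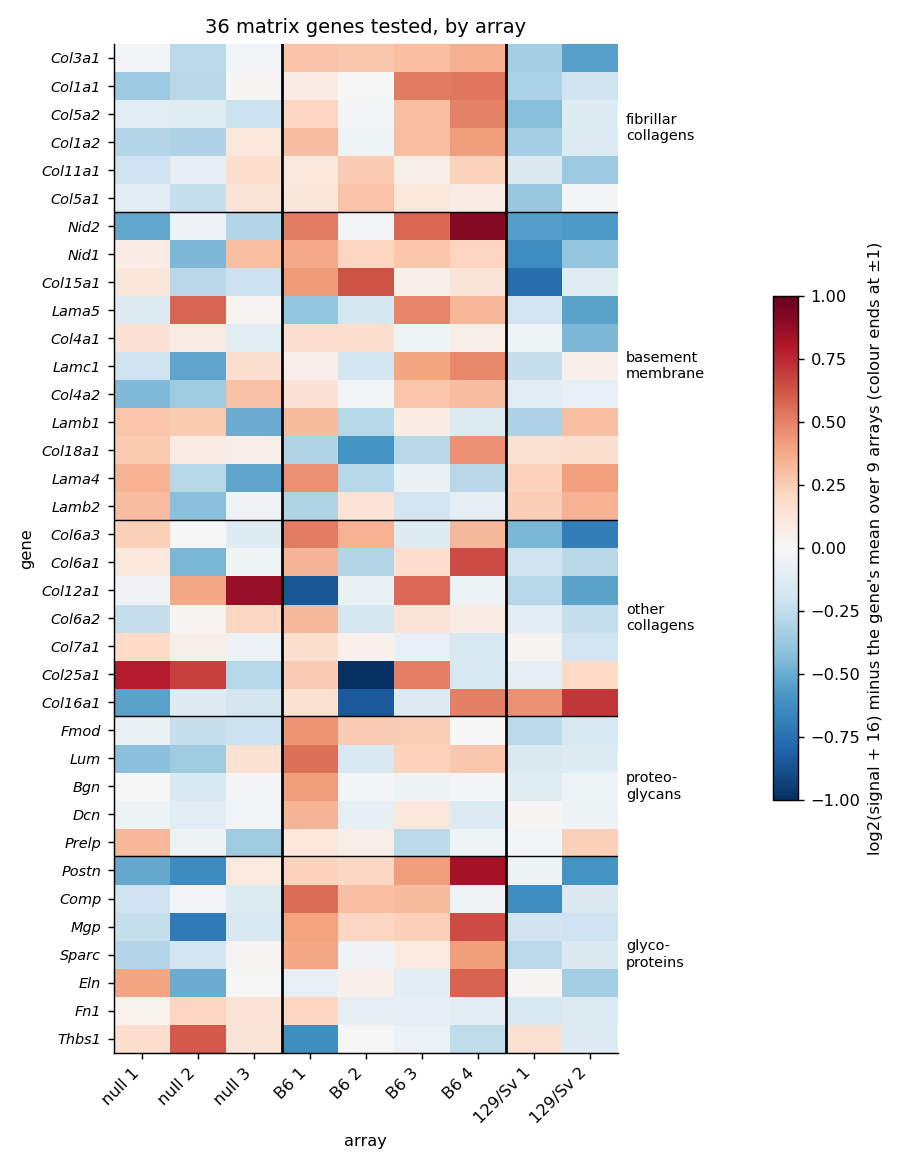
Log2 signal of the 36 tested matrix genes (rows, by role) on the 9 arrays (columns, null then B6 then 129/Sv), minus each gene's mean over the arrays; red is above and blue below that mean. All 6 fibrillar collagen genes are above their own mean on B6 arrays 1, 3 and 4 and none is on either 129/Sv array.

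The array-to-array picture was uneven within B6. The number of tested matrix genes above their own 9-array mean was 16, 10 and 16 on the null arrays, 30, 16, 24 and 23 on the B6 arrays and 8 and 8 on the 129/Sv arrays. B6 array 2, with 16, matched null arrays 1 and 3 in this count, and both 129/Sv arrays were lowest. For the fibrillar collagens the counts were 0, 0 and 4 of 6 on null arrays, 6, 4, 6 and 6 on B6 arrays and 0 and 0 on 129/Sv arrays.

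Collagens outside the fibrils included Col6a3, a chain of the beaded filaments of type VI collagen that surround cells. Its signals were 2069.4, 1746.6 and 1601.8 on null arrays, against 2509.3, 2232.9, 1599.5 and 2204.8 on B6 arrays and 1272.7 and 1078.1 on 129/Sv arrays. Both 129/Sv arrays were below all other arrays, and the null and B6 arrays overlapped. The difference of B6 from 129/Sv was 0.84 (SE 0.18, limma adjusted p = 0.0117). Null glands differed from 129/Sv by 0.61 (SE 0.19, limma adjusted p = 0.147) and from B6 by -0.23 (limma adjusted p = 0.519), and neither passed. The B6 call was lost without 129/Sv array 2 (limma adjusted p = 0.152) and with both B6 arrays 1 and 2 left out (0.0542).

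The partner chains Col6a1 and Col6a2 overlapped between B6 and 129/Sv, and their differences were 0.45 (95% interval -0.02 to 0.93) and 0.26 (-0.08 to 0.61). Col7a1, the anchoring fibril collagen that ties epithelium to dermis, had 3086.8, 2796.9 and 2570 on null arrays, 3000, 2768.4, 2536.6 and 2400.7 on B6 arrays and 2727.7 and 2343.2 on 129/Sv arrays, with all groups overlapping. Its differences were 0.08 for null against B6 (95% interval -0.18 to 0.33) and 0.08 for B6 against 129/Sv (-0.21 to 0.36). Col16a1, a fibril-associated collagen, was the only tested matrix gene with every null array (389.7, 521.9 and 501) below both 129/Sv arrays (791.2 and 944.6), but its adjusted p in limma was 0.317. It was named after its values were seen, as was Col12a1, whose null arrays (600.6, 809.6 and 1141.3) were all above the 129/Sv arrays (502.7 and 418.6) with a limma adjusted p of 0.397.

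Basement membrane genes differed between strains in 1 called gene. Nid1 encodes nidogen-1, which links laminin to collagen IV, and it had 953.7, 660.7 and 1121.9 on null arrays, against 1180.3, 1054.3, 1100.4 and 1053.7 on B6 arrays and 582.3 and 689.2 on 129/Sv arrays. All B6 arrays lay above both 129/Sv arrays, and the null arrays overlapped with both groups. The difference of B6 from 129/Sv was 0.78 (SE 0.21, limma adjusted p = 0.0480), and it passed in few other settings: without 129/Sv array 1 the adjusted p was 0.303, without 129/Sv array 2 0.134, and without B6 array 1, 2, 3 or 4 it was 0.0692, 0.0766, 0.0884 and 0.0763. Without null array 1 it was 0.0675, and with the mean of both Nid1 probe sets the difference was 0.44 (0.267). A second, dimmer Nid1 probe set had a difference of 0.11 that was not called. A dimmer Col3a1 probe set likewise had 0.25 for B6 against 129/Sv and -0.42 for null against B6, not called.

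Nid2, the related nidogen-2, was named after its values were seen. It had 329.9, 460 and 387.9 on null arrays, against 689.9, 476.6, 720.9 and 922.1 on B6 arrays and 321.6 and 317.1 on 129/Sv arrays. All B6 arrays were above the arrays of both other groups, but no null or 129/Sv array passed its array's median, and neither difference was called (null against B6 -0.79, limma adjusted p = 0.168; B6 against 129/Sv 1.06, limma adjusted p = 0.0709). Without B6 array 2 the second passed (0.0369). Col4a1 and Col4a2, the paired chains of collagen IV found in every basement membrane, had differences of -0.06 and -0.35 for null against B6 and 0.34 and 0.27 for B6 against 129/Sv, none called. Lamb1, a laminin chain, averaged 1040 ± 290 in null glands (SD, n = 3), 1007 ± 189 in B6 (SD, n = 4) and 1018 ± 304 in 129/Sv (SD, n = 2), with a difference of B6 from 129/Sv of -0.0017 (95% interval -0.55 to 0.55). Lamb2, also a laminin chain, was the only tested matrix gene with every B6 array (447.1 to 611.4) below both 129/Sv arrays (658.3 and 710.2), with a limma adjusted p of 0.481. Of the 11 basement membrane genes, 7 had a positive difference of B6 from 129/Sv, with a median of 0.28.

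Among the glycoproteins, Mgp was called in both comparisons that involve B6. It encodes matrix Gla protein, an inhibitor of soft tissue calcification made by cartilage, vessel wall and fibroblasts. Its signals were 4884.4, 3512 and 5143.4 on null arrays, against 7610.2, 6624.1, 6794.5 and 9031.1 on B6 arrays and 5012.4 and 4983 on 129/Sv arrays. All B6 arrays lay above the arrays of both other groups, while the null and 129/Sv arrays overlapped. Null glands were 1.67-fold lower than B6, a log2 difference of -0.74 (SE 0.14, limma adjusted p = 0.00931), and the call held with each array left out in turn. It was lost, at 0.0658, when eBayes was run without a trend. B6 glands were 0.58 above 129/Sv (SE 0.16, limma adjusted p = 0.0478). That call was lost at limma adjusted p of 0.213 and 0.227 without 129/Sv array 1 or 2, at 0.0544, 0.0580 and 0.10 without B6 array 1, 3 or 4, and at 0.0623 and 0.0503 without null array 1 or 3.

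Sparc, a collagen-binding protein secreted by matrix-producing cells, had 9111.2, 9768.2 and 11389 on null arrays, against 14607.4, 10879, 11903.3 and 14896.1 on B6 arrays and 9258.9 and 10080.4 on 129/Sv arrays. Null array 3 overlapped with B6 array 2, and all B6 arrays were above both 129/Sv arrays. Differences were -0.37 for null against B6 (limma adjusted p = 0.131) and 0.42 for B6 against 129/Sv (limma adjusted p = 0.0966). Without B6 array 2, B6 against 129/Sv passed at 0.0377. Postn, a secreted protein of periosteum and remodelling stroma named after its values were seen, had 1003.3, 927.7 and 1542 on null arrays, against 1692.4, 1667.7, 1931.7 and 2579.5 on B6 arrays and 1387.8 and 948.8 on 129/Sv arrays. All B6 arrays were above the arrays of both other groups, and neither difference passed (null against B6 -0.77, limma adjusted p = 0.0649; B6 against 129/Sv 0.75, limma adjusted p = 0.0866). Postn passed for null against B6 without B6 array 1 (0.0394) or null array 3 (0.0319), and in both comparisons without B6 arrays 1 and 2 (0.0317 and 0.0447).

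Fn1, fibronectin, and Thbs1, thrombospondin-1, did not have the B6 arrays above both other groups. Fn1 had 3005.1, 3402.5 and 3231.1 on null arrays, 3400.7, 2732.3, 2752.1 and 2712.4 on B6 arrays and 2618.4 and 2662.2 on 129/Sv arrays. All null arrays and all B6 arrays were above both 129/Sv arrays, null and B6 arrays overlapped, and B6 array 1 stood apart from the other B6 arrays. No Fn1 difference was called. Thbs1, named after its values were seen, was the only tested matrix gene with every null array (919.6, 1255.5 and 894.3) above every B6 array (526 to 811.1), with a difference of 0.54 (limma adjusted p = 0.203).

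The 5 proteoglycans had a median difference of B6 from 129/Sv of 0.16, with 4 of 5 positive, and none was called. Dcn, decorin, had 17936.2, 17306.9 and 18313.8 on null arrays, 23529.8, 17534.6, 20051.9 and 16917.9 on B6 arrays and 18748.9 and 17981.7 on 129/Sv arrays. The B6 arrays spanned both other groups. Its differences were -0.12 for null against B6 (95% interval -0.34 to 0.11) and 0.08 for B6 against 129/Sv (-0.18 to 0.33). Fmod, fibromodulin, had 2899.4, 2599.8 and 2631.4 on null arrays, against 4158, 3637.1, 3633.2 and 3048.4 on B6 arrays and 2531.3 and 2747.5 on 129/Sv arrays, with all B6 arrays highest. Its differences were -0.41 (limma adjusted p = 0.0797) and 0.45 (limma adjusted p = 0.0678), and of its 6 probe sets 4 had the tested one's sign for null against B6 and 5 for B6 against 129/Sv. Without B6 array 4 both Fmod differences passed, at 0.0417 and 0.0270. Bgn, biglycan, had 3754.1, 3358.7 and 3703.1 on null arrays, 5010.6, 3684.9, 3604.5 and 3708 on B6 arrays and 3439.2 and 3640.3 on 129/Sv arrays, with B6 array 1 alone above the rest.

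**Figure D3:**
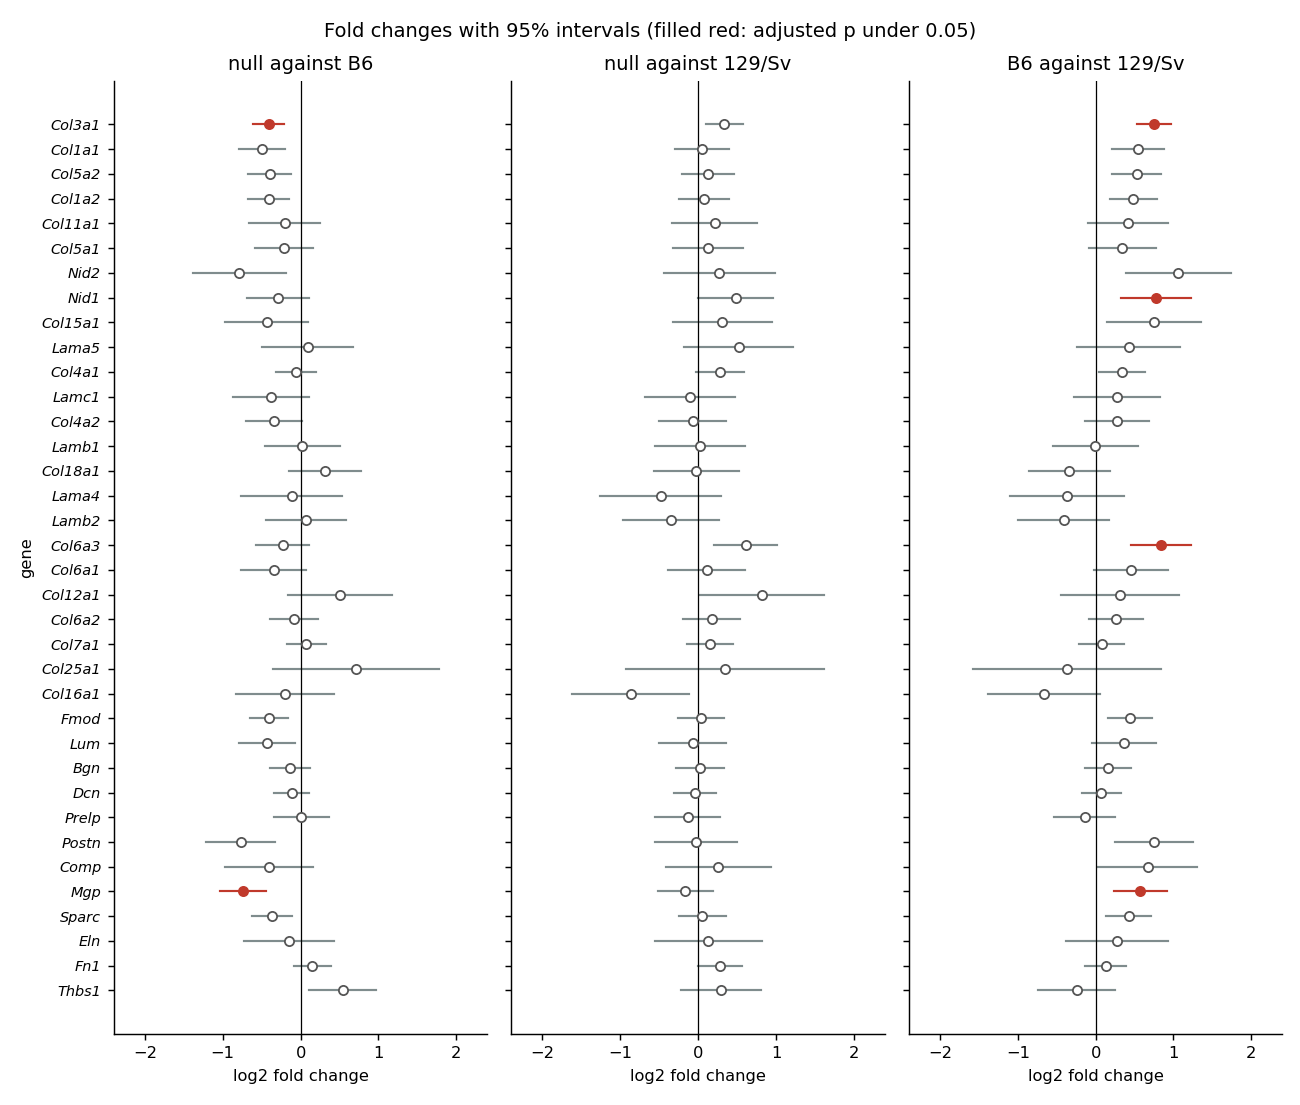
Log2 fold changes of the 36 tested matrix genes, by role, with 95% intervals, for null over B6, null over 129/Sv and B6 over 129/Sv; filled red points passed an adjusted p of 0.05. The passing genes are Col3a1 and Mgp below 0 for null over B6 and Col3a1, Col6a3, Mgp and Nid1 above 0 for B6 over 129/Sv.

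For null against B6, 2 of the 36 tested matrix genes were called, which is 5.56%, beside 2.84% of all tested genes. Both were lower in null glands, beside 1.42% of all tested genes that were called lower. Counting arrays without a threshold, every null array was below every B6 array in 6 of 36 genes (Col3a1, Col5a2, Fmod, Mgp, Nid2 and Postn), beside 6.28% of all tested genes. Every null array was above every B6 array in 1 of 36, beside 7.92%. Nid2 is among the 6 and exceeded the median on no null array. Among the 23 matrix genes above the median on all 9 arrays the count was 5, or 21.7%, beside 6.57% of all such genes. With fewer arrays non-overlap is more frequent for any gene: the count of 6 became 15, beside 10.3% of all, without null array 3, and 11, beside 8.96% of all, without B6 array 2. At an unadjusted p under 0.05 there were 11 of 36, beside 15% of all. The median log2 difference was -0.21 over the tested matrix genes, with 26 of 36 negative, and 0.02 over all tested genes. With no filter it was -0.18 over all 62 matrix genes.

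For null against 129/Sv, 0 of 36 matrix genes were called in limma, beside 2.2% of all tested genes. At an unadjusted p under 0.05 there were 5 of 36, beside 12.1% of all. Every null array was above both 129/Sv arrays in 6 of 36, or 16.7% (Col12a1, Col3a1, Col6a3, Fn1, Lama5 and Nid2), beside 17.1% of all tested genes. Every null array was below them in 1 of 36 (Col16a1), beside 15.1%. Of the 6, Col12a1, Lama5 and Nid2 exceeded the median on no 129/Sv array, and Col16a1 exceeded it on no null array. The count over genes above the median on all 9 arrays was not made for this comparison. The median difference was 0.12 over the matrix genes and 0.01 over all tested genes, but it was -0.0040 without 129/Sv array 1 and 0.068 without null array 3. Set against both strains averaged with equal weight, null glands also gave 0 of 36 calls in limma, beside 1.28% of all, with 3 of 36 at an unadjusted p under 0.05, beside 12.4% of all.

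For B6 against 129/Sv, 4 of 36 matrix genes were called, 11.1%, beside 5.44% of all tested genes. All 4 were higher in B6, beside 2.91% of all tested genes called higher. At an unadjusted p under 0.05 there were 14 of 36, beside 18% of all. Every B6 array was above both 129/Sv arrays in 18 of 36 genes, beside 12.6% of all tested genes, and below both in 1 of 36, beside 13.2%. Col11a1, Col15a1, Comp and Nid2 are among the 18 and exceeded the median on no 129/Sv array. Among the 23 matrix genes above the median on all 9 arrays the count was 14, or 60.9%, beside 12.5% of all 5843 such genes. The difference was positive for 28 of 36 tested matrix genes, 77.8%, and for 48.5% of all tested genes. With no filter it was positive for 43 of 62, with a median of 0.28, and the median over the 36 was 0.34. These comparisons share arrays with those of null against B6.

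**Figure D4:**
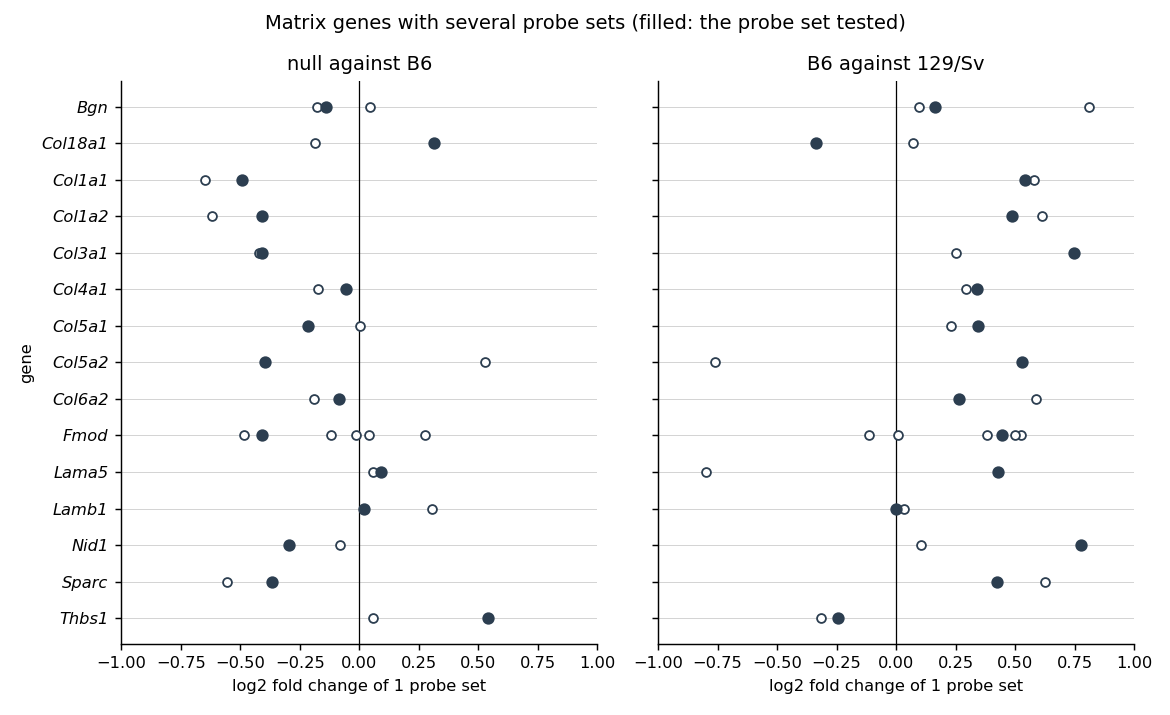
Log2 fold changes of each kept probe set of the 15 matrix genes with several, for null over B6 and B6 over 129/Sv; filled points are the probe sets tested. In each comparison, all probe sets had the same sign in 10 of the 15 genes.

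Several matrix genes are read by more than 1 probe set, and some of these differ. Of 15 genes with several kept probe sets, 10 had the same sign in all of them for null against B6 and 10 for B6 against 129/Sv. When each probe set was tested on its own, 5 of 56 matrix probe sets were lower in null than B6, beside 1.07% of all probe sets, and 7 of 56 were higher in B6 than 129/Sv, beside 2.92%. Dimmer probe sets of Col1a1 (-0.65, limma adjusted p = 0.0196), Col1a2 (-0.62, 0.0408) and Sparc (-0.56, 0.0397) were called lower in null than B6, where the brightest ones were not. For B6 against 129/Sv the same probe sets were called at 0.58 (limma adjusted p = 0.0393), 0.61 (0.0460) and 0.63 (0.0226), and a dimmer Bgn probe set at 0.81 (0.0315). The Mgp probe set was then not called for B6 against 129/Sv (limma adjusted p = 0.0519).

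Enzymes that build collagen were examined next, from a list of 22 genes on the array, 14 of them tested. In limma 0 were called for null against B6, also 0 at an unadjusted p under 0.05, while 2 were higher in null than 129/Sv (beside 2.2% of all tested genes called), 1 was higher against the strains' average (beside 1.28%) and 3 were higher in B6 than 129/Sv (beside 2.91% called higher). Lox, lysyl oxidase, which crosslinks collagen and elastin, had 3136.6, 3238.1 and 2944.3 on null arrays, 3269.3, 4241.1, 3617.7 and 3614 on B6 arrays and 2205.2 and 1559.7 on 129/Sv arrays. Both 129/Sv arrays were lowest and the other groups did not overlap, with all B6 arrays above all null arrays. Lox was 0.74 higher in null than 129/Sv (limma adjusted p = 0.0218) and 0.98 higher in B6 than 129/Sv (limma adjusted p = 0.00111). The null call was lost without 129/Sv array 2 (0.345) and without null array 1, 2 or 3 (0.0862, 0.0930 and 0.0593).

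Colgalt1, which adds galactose to hydroxylysine of collagen, had 2889.7, 3102.7 and 3026.7 on null arrays, 2880.5, 2965.2, 2735.3 and 2758.5 on B6 arrays and 1662.5 and 1589.6 on 129/Sv arrays. Null and B6 arrays overlapped and both were above 129/Sv, with differences from 129/Sv of 0.88 (limma adjusted p = 0.000965) and 0.80 (limma adjusted p = 0.000570). In null glands it was also 0.48 above the strains' average (limma adjusted p = 0.0252), a call lost without 129/Sv array 2 (0.0906) or null array 1, 2 or 3 (0.0994, 0.125 and 0.102), and with the mean of the gene's probe sets (0.284). Serpinh1, the collagen chaperone HSP47, had 2103, 2593.1 and 2863.4 on null arrays, 2881.6, 2657.3, 3189.7 and 2984.5 on B6 arrays and 2052.5 and 1820.8 on 129/Sv arrays. All B6 arrays were above both 129/Sv arrays, and the null arrays, all above 129/Sv, overlapped with B6. It was 0.59 higher in B6 than 129/Sv (limma adjusted p = 0.0225), a call lost without 129/Sv array 1 (0.0789), 129/Sv array 2 (0.222) or B6 array 3 (0.0614).

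Matrix turnover genes, 11 of 23 tested, held 1 called gene, lower in null than B6, beside 1.42% of all tested genes. Mmp13, collagenase-3, which cleaves fibrillar collagen, had 835.9, 469.2 and 1073.6 on null arrays, against 1734, 1441.3, 1407.1 and 1740.7 on B6 arrays and 1152 and 1075.3 on 129/Sv arrays. All null arrays were below all other arrays. The difference from B6 was -1.05 (limma adjusted p = 0.0220) and that from 129/Sv was -0.56 (0.429). The call was lost without B6 array 4 (0.0586) or null array 1 or 2 (0.0527 and 0.0630).

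TGF-beta signalling, a main inducer of collagen genes, had 17 of 21 genes tested, of which 1 was called for null against B6 (beside 2.84% of all tested genes) and 1 for B6 against 129/Sv (beside 5.44%). Tgfbr2, its type II receptor, had 4303.6, 3775 and 3759.5 on null arrays, above all B6 arrays (2768.3, 2506.2, 2588.9 and 2436.7) and both 129/Sv arrays (3081.4 and 3477.6). It was 0.61 higher in null than B6 (limma adjusted p = 0.00401) and 0.44 above the strains' average (0.0420). The second call was lost without 129/Sv array 1 or 2 (0.113 and 0.0906), B6 array 2, 3 or 4 (0.0572, 0.0731 and 0.0681) or null array 1, 2 or 3 (0.248, 0.132 and 0.121). With the mean of the gene's probe sets neither passed (0.0803 and 0.0896). Eng, an endothelial co-receptor, was 0.64 higher in B6 than 129/Sv (limma adjusted p = 0.0129), a call lost without 129/Sv array 1 (0.117) or 2 (0.0902). No other gene of the list was called in any of these comparisons.

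Matrix receptors had 15 of 21 genes tested. For null against B6, 4 were called, all higher in null glands, beside 2.84% of all tested genes. For null against 129/Sv 1 was higher and 1 lower, beside 2.2%, and for B6 against 129/Sv 1 was higher and 3 lower, beside 5.44%. Sdc4, a heparan sulfate syndecan, had 2887.4, 7012.9 and 4862.2 on null arrays, 1157.7, 1142.4, 1397.3 and 1233.4 on B6 arrays and 13126 and 11444.3 on 129/Sv arrays. The groups did not overlap, with B6 lowest and 129/Sv highest. Its difference was 1.90 for null against B6 (limma adjusted p = 0.000224), -1.40 for null against 129/Sv (0.00966) and -3.30 for B6 against 129/Sv (2.03e-06). Null against 129/Sv did not pass without 129/Sv array 1 (0.0915) or 2 (0.0666). With the mean of its probe sets the differences were 0.73, -0.20 (limma adjusted p = 0.645) and -0.93, the first and last still called.

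Sdc2, a second syndecan, had 874.7, 900.9 and 656 on null arrays, 1119.9, 1096.1, 1367.1 and 458.9 on B6 arrays and 80.3 and 329.7 on 129/Sv arrays, with both 129/Sv arrays lowest. It was 2.39 higher in B6 than 129/Sv (limma adjusted p = 0.00771), a call lost without 129/Sv array 1 (0.136). It was 2.17 higher in null than 129/Sv (0.0379), a call lost without 129/Sv array 1 (0.313), B6 array 2 (0.0524) or null array 1, 2 or 3 (0.136, 0.138 and 0.0784). Itga9, an integrin chain that binds tenascin-C among other ligands, had 1081.6, 962.3 and 970.5 on null arrays, 220.1, 303.5, 501.1 and 276.4 on B6 arrays and 945.4 and 1215.4 on 129/Sv arrays. All B6 arrays were below the arrays of both other groups. The difference was 1.64 for null against B6 (limma adjusted p = 0.00301) and -1.74 for B6 against 129/Sv (0.00287), the second lost without 129/Sv array 2 (0.0671). Itgb4, a laminin receptor chain of epithelial hemidesmosomes, was likewise highest on null and 129/Sv arrays, with differences of 1.14 (limma adjusted p = 0.0130) and -0.95 (0.0422). Its call against B6 was lost without null array 1 (0.0818) or 2 (0.0835). The fourth gene called for null against B6, Itgav, the integrin alpha-V chain, was named after its values were seen: it had 2836.5, 2467.8 and 2504.9 on null arrays, against 2095.7, 1944.2, 1577 and 1842.9 on B6 arrays, with no overlap, and a difference of 0.48 (limma adjusted p = 0.0486). It did not pass without any of the arrays in turn except B6 array 1 (adjusted p of 0.0646 to 0.217). For Itgb4 the call of B6 against 129/Sv was lost without 129/Sv array 1 or 2 (0.385 and 0.0710), B6 array 2, 3 or 4 (0.0762, 0.0884 and 0.0851) or null array 1 or 2 (0.0634 and 0.0616).

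**Figure D5:**
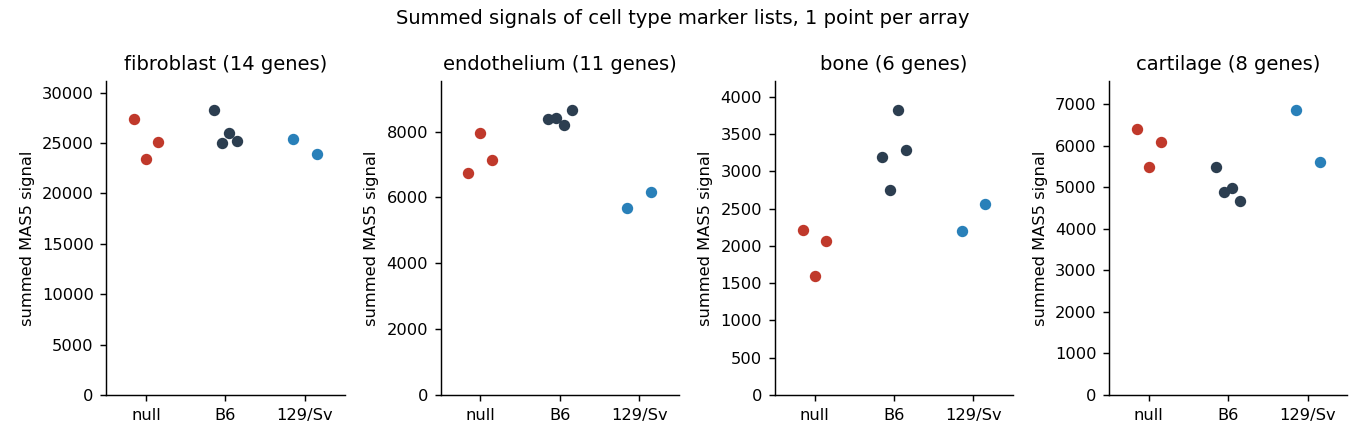
Summed signals (linear MAS5 units) of marker lists for cell types that could contribute matrix RNA, 1 point per array, null left, B6 middle and 129/Sv right. Fibroblast sums overlap across groups (23382 to 28317), while bone and endothelial sums are highest in B6 and cartilage sums are lower in B6 (4660 to 5487) than in 129/Sv (5598 and 6868). Macrophage sums, not drawn, are lowest in B6, although 6 of 7 tested macrophage markers had a positive difference of B6 from 129/Sv.

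Markers of matrix-producing and other cells were set beside these values. Of 14 fibroblast markers, 8 were tested and 0 were called for null against B6 in limma (1 at an unadjusted p under 0.05), while Fbln1, fibulin-1, was lower in null than 129/Sv (-0.85, limma adjusted p = 0.0420), a call lost without 129/Sv array 1 or 2 (0.119 and 0.370) or null array 1, 2 or 3 (0.102, 0.152 and 0.0994). Their sums were 23382 to 27380 in null glands, 25003 to 28317 in B6 and 23866 to 25414 in 129/Sv. Of the 8 tested fibroblast markers, 2 had a positive difference for null against B6, beside 54.1% of all tested genes. For B6 against 129/Sv 5 of the 8 did, beside 48.5%. Bone markers, 3 of 6 tested, summed to 1602 to 2216 in null glands, 2751 to 3832 in B6 and 2195 to 2564 in 129/Sv, and Omd, osteomodulin, was called lower in null than B6 (-1.05, limma adjusted p = 0.0366), but not without B6 array 3 (0.114) or null array 1, 2 or 3 (0.0789, 0.149 and 0.0918). Endothelial markers, 7 of 11 tested, summed to 6731 to 7961, 8209 to 8671 and 5685 to 6172 in the same order of groups, with 7 of 7 positive for B6 against 129/Sv. In limma 0 of the 7 were called in that comparison (2 at an unadjusted p under 0.05) or for null against B6 (1 at an unadjusted p under 0.05). Bone and endothelial sums thus did not overlap between null and B6, nor between B6 and 129/Sv, and were highest in B6. Macrophage sums did not overlap in these comparisons either, but were lowest in B6. Most macrophage markers did not follow the sum: of 7 tested, 6 had a positive difference of B6 from 129/Sv and 3 of null from B6. For B6 against 129/Sv 2 of them were called higher and 1 lower, beside 5.44% of all tested genes. For null against B6 1 was called higher, beside 2.84% called in either direction. Ciliated cell sums did not overlap between null and B6, with null higher. Between B6 and 129/Sv, sums of skeletal muscle, olfactory neuron and secretory cell markers did not overlap, with B6 higher. Cartilage sums did not overlap between B6 and 129/Sv, with B6 lower. Cartilage markers, 4 of 8 tested, summed to 5477 to 6401, 4660 to 5487 and 5598 to 6868. Of the matrix members known from cartilage, Col2a1, Acan and Matn1 stayed below the filter, while Comp and Col11a1 passed it. Ciliated cell markers summed to 13455 to 14094 in null glands, 8170 to 10003 in B6 and 9201 to 10624 in 129/Sv. Of these markers 3 of 5 were called higher in null than B6, beside 2.84% of all tested genes called in either direction. For B6 against 129/Sv, 1 of 4 tested olfactory neuron markers and 2 of 8 tested secretory cell markers were called higher, beside 2.91%. For null against B6, 1 secretory cell marker was called higher and 1 lower. Skeletal muscle markers, 0 of 8 tested, summed to 1054 to 1742, 1108 to 2332 and 903 to 1020. Sums of smooth muscle markers were 27838 to 29801, 26092 to 31118 and 29528 to 34577, and of olfactory neuron markers 1709 to 5387, 2278 to 8496 and 1207 to 2198. Macrophage markers summed to 39143 to 44311, 31342 to 34991 and 35904 to 42008, nerve sheath markers to 9898 to 10850, 9247 to 10691 and 9789 to 9981, and adipocyte markers to 1564 to 1696, 1661 to 1969 and 1502 to 1865. Markers of the gland's secretory cells, the labelled tissue, were present at 493599 to 617357, 410555 to 544697 and 354366 to 379018. The part of these cells in the matrix differences was not tested.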

How the data were processed

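The deposited values are 1-colour array signal intensities on a linear scale, made by the authors using MAS5; per the submitters' processing notes no version is named. The near-equal trimmed means show a common scaling of the arrays. Without detection calls it is not known how many probe sets lay above background, and the number of arrays limits the precision.

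Of 22690 probe sets, 64 controls were left out. Of the others 20380 had 1 symbol in the platform annotation, 691 several and 1555 none, and only those with 1 symbol were named. Of their gene IDs, 20351 matched RefSeq's genes, and 0 symbols were updated. Signals became log2(signal + 16), with no further normalization. Differences are on this scale, which understates changes at low signals. Probe sets above their array's median on at least 2 arrays were kept (12575), and each gene was read by its kept probe set of highest mean (7487 genes). The model, run in R 4.3.3 with limma 3.58.1 (lmFit, eBayes with trend), had a mean for each of the 3 groups, and p-values are two-sided, with Benjamini-Hochberg adjustment over all genes and a threshold of 0.05. Null glands were compared with B6, with 129/Sv and with the unweighted mean of these strains, and B6 glands with 129/Sv, in 4 contrasts. The script was tested on simulated data.

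Members, lists and tests were chosen with earlier results of these data known. Named were every called matrix gene, the 3 with the highest signal in each role, up to 4 called genes of each related list, and genes said to be named after their values were seen. Group counts also name their members. The alternatives were 2 normalizations, pseudocounts of 1 and 64, other filters, the mean of probe sets or probe sets taken singly, other variance models, the replicate number as a block, fewer groups in the fit, and arrays left out. Probe sets taken singly, and the count over genes above the median on all 9 arrays, were added after seeing the data. The labels give no array batch.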

Additional observations from a re-analysis of the deposited data

Results flagged for a closer look

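On B6 array 1, the signal of Bgn was 5010.6, far from the other B6 arrays at 3604.5 to 3708, with a gap of 0.926 of the group's range. On the same array Fn1 had 3400.7, with the other B6 arrays at 2712.4 to 2752.1 and a gap of 0.942 of the range. Chance puts about 1 group in 20 past the limit used here.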

How the results depend on the processing

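Of 144 values of the 36 tested matrix genes over the 4 comparisons, 123 were called in no setting, 21 were called in at least 1 setting (2 of these only with probe sets taken singly), and 0 reversed a called direction in the gene-level alternatives. Col3a1 for B6 against 129/Sv was called in 21 of 21 alternatives (adjusted p of 0.000404 to 0.0257 in limma), Mgp for null against B6 in 20, Col6a3 for B6 against 129/Sv in 19, Col3a1 for null against B6 in 13 and Mgp for B6 against 129/Sv in 9, and Nid1 for B6 against 129/Sv in 5 of 20, having no value under the filter at the 75th percentile. The number of matrix genes called for B6 against 129/Sv was 4 of 36. It became 2 of 36 with equal array medians and 2 of 62 with no filter. Probe sets taken singly gave 7 of 56, beside 2.92% of all probe sets called higher. With a B6 or null array left out the number ran from 2 to 8. The number for null against B6 was 2 of 36. It became 0 with eBayes without trend, 4 with array weights and 6 of 35 without B6 arrays 1 and 2. Probe sets taken singly gave 5 of 56, beside 1.07% of all probe sets called lower. With a B6 or null array left out the number ran from 1 to 4. For the other alternatives, and for the replicate block below, the share of all genes called was not counted. The genes with every null array below every B6 array, 6, became 12 (beside 17.8% of all genes then tested) without B6 arrays 1 and 2 and ran from 6 to 15 with an array left out, where the share of all genes ran from 6.27% to 11.9%. The 18 of 36 genes (50%) with every B6 array above both 129/Sv arrays ran from 12 to 23 over all alternatives, where the share of all genes ran from 10.4% to 24.3%. The count of 12 was of 19 genes (63.2%, beside 13.1% of all) with a filter at the 75th percentile. The lowest share of matrix genes was 20 of 62 (32.3%, beside 11.6% of all) with no filter. The highest was 23 of 35 (65.7%, beside 24.1% of all) without B6 arrays 1 and 2. The median log2 difference of the tested matrix genes was -0.35 for null against B6 with a filter at the 75th percentile (19 genes), and 0.058 and 0.056 for null against 129/Sv with equal array medians and with that filter. The cause of these shifts was not tested.

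With the replicate number as a block, null against 129/Sv gave 1 call (Col6a3) in place of 0, null against B6 gave 2 (Col1a1 and Mgp), B6 against 129/Sv gave 3 and null against the mean of both strains 0. The median log2 difference of B6 from 129/Sv over the tested matrix genes was 0.25 with this block and 0.34 without it. Deviations of same-numbered pools of different groups correlated with r of -0.087 to 0.104 over 7 pairs, 1 of them over 0.1. The 2 arrays of 129/Sv deviate from their mean as mirror images, so pairs with them say little. Whether same-numbered pools shared more than a number is not known. With 2 arrays of 129/Sv, leaving out 1 leaves a lone array that is assumed to vary like the other groups.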
